A study of Mus musculus with 2 samples.

Results

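The cells described here are CD8 T cells of the tumour that held few transcripts of the cytotoxic granule genes Gzmb, Gzmc, Gzmf and Prf1. They were chosen on measured unique molecular identifier (UMI) counts: at least 1 UMI of Cd8a or Cd8b1, at least 1 UMI of Cd3e, Cd3g or Cd3d, no UMI of Cd4, Foxp3, Xcr1 or Clec9a, at most 1 UMI of the C1q genes, and fewer than 3 UMIs of the 4 granule genes together. Of 15762 deposited cell barcodes, 15259 had at least 200 detected genes and at most 20% mitochondrial UMIs, and 1226 of these met the rule. The library labelled wt held 512 of them and the library labelled Lcn2-ko held 714. The remaining 983 CD8 T cells, with 3 or more granule UMIs, are called granzyme-high below, and 1085 T cells with Cd4 and neither Cd8 nor Foxp3 UMIs serve as a further reference class.

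The study asked what lipocalin 2, a secreted protein that binds iron-loaded siderophores, contributes to the diversity and function of neutrophils in tumours. MB49 tumours, from a mouse bladder cancer cell line of male origin, were grown in chimeric mice, that is, female mice that received male marrow, either wild type (wt) or Lcn2 knockout (Lcn2-ko), after lethal irradiation; the design was meant to mimic loss of Lcn2 in myeloid cells, and host T cells that survive irradiation can remain in such mice. The tumours were digested with collagenases, DNase I and Dispase II at 37 °C, live CD45+ cells were sorted, and 3′ transcript ends were counted with UMIs on the BD Rhapsody platform. There was 1 library per genotype label. The number and age of the mice behind each library are not given in the sources used here, and the sex recorded for the samples is female although the protocol speaks of tumours from male and female mice.

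CD8 T cells recognise peptides on MHC class I molecules and kill target cells with perforin and granzymes. Naive and central memory CD8 T cells carry few granule transcripts and recirculate through lymph nodes, guided by the sphingosine-1-phosphate receptor S1PR1 and the chemokine receptor CCR7. Memory cells readily express the chemokine CCL5 and, in mice, the surface protein Ly6C. In tumours, CD8 T cells exposed to antigen for long periods take up inhibitory receptors such as PD-1, LAG-3 and TIM-3.

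The libraries held 42069099 (wt) and 40959725 (Lcn2-ko) UMIs, and the granzyme-low cells held 1809678 and 2780932 of them. Their median depth was 2921 and 3014 UMIs per cell, against 3147 and 3354 in granzyme-high cells and 2720 and 2731 in CD4 T cells. The libraries shared 4 barcodes, none of them in a granzyme-low cell. Lcn2 was counted in both libraries, with 704 UMIs in wt and 633 in Lcn2-ko over all kept cells and 7 and 12 in the granzyme-low cells. A 3′ tag need not lie in the deleted part of a gene, and the label describes the marrow, not host or tumour cells. These counts therefore do not check the genotype, and the sample is called the library labelled Lcn2-ko. With 1 library per label, differences between libraries have no replicate check, no p-value is given for them, and intervals (95%, exact Poisson for levels, exact Clopper-Pearson for shares, Newcombe for differences of shares, exact conditional binomial for ratios) cover counting error only. In sums over a class, fewer cells expressing a gene and less RNA per cell cannot be told apart.

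The 5 markers given for these cells were all detected in both libraries, which for Cd8a and Cd8b1 follows from the rule. Cd8a, which encodes a chain of the CD8 coreceptor (mm10, chr6:71373427-71379173, plus strand), stood at 921 CPM (UMIs of the gene per 1000000 UMIs of the class) in wt (95% interval 877 to 966) and 809 CPM in Lcn2-ko (776 to 843). Cd8b1 (chr6:71322788-71337494, plus strand), the other chain, stood at 512 and 484 CPM. Ccl5 (chr11:83525778-83530518, minus strand) was the most abundant of the 5, at 1656 CPM in wt (1597 to 1716) and 1510 CPM in Lcn2-ko (1465 to 1557). Ly6c2 (chr15:75108158-75111970, minus strand), which encodes Ly6C2, stood at 746 CPM (707 to 787) and 622 CPM (593 to 652). S1pr1 (chr3:115710433-115715072, minus strand), which directs exit from tissue into lymph and blood, stood at 54.7 CPM (44.5 to 66.6) and 43.5 CPM (36.1 to 52.0). None of the 5 was expressed by all the cells: a Ly6c2 UMI was found in 41.8% (wt) and 41.3% (Lcn2-ko) of granzyme-low cells and an S1pr1 UMI in 13.9% and 10.5%. Neutrophil-like cells, which had Csf3r and S100a8 and no Cd3 UMI, gave a background, although they may express Ly6c2 themselves. Of them, 10.8% and 11.1% had a Ly6c2 UMI and 0.49% and 0% an S1pr1 UMI, at median depths of 1520 and 1366 UMIs (407 and 208 cells). Among the CD4 T cells, 7.75% and 9.94% had a Ly6c2 UMI.

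The limit of 3 granule UMIs cut through a continuous distribution. Of the 945 wt CD8 T cells, 320 had no granule UMI, 126 had 1, 66 had 2, and 58 had 3, the first value outside the limit. Of the 1264 CD8 T cells of the library labelled Lcn2-ko, 408 had none, 183 had 1, 123 had 2 and 68 had 3. More than 10 granule UMIs were found in 158 and 247 cells. Levels of genes that the rule did not use already differed below the limit. Ccl5 stood at 1396, 1965 and 2271 CPM at 0, 1 and 2 granule UMIs in wt, and at 3537, 3138 and 2673 CPM at 3, 4 and 5 or more. In Lcn2-ko it stood at 1195, 1749 and 2308 CPM inside the limit and 2773, 2145 and 2283 CPM outside it. Gzma (chr13:113093825-113100981, minus strand), a granzyme outside the rule, stood at 48.3, 132 and 65.7 CPM inside the limit and 289, 295 and 1825 CPM outside it in wt, and at 63.1, 116 and 252 against 254, 378 and 2280 CPM in Lcn2-ko. Havcr2, which encodes TIM-3, went from 33.7 CPM at 0 to 75.1 at 2 and 75.0 at 3 in wt, and from 51.0 to 83.2 and 105 CPM in Lcn2-ko. Ccl5 had its highest level at 3 UMIs in both libraries, and Gzma was far higher at 5 or more UMIs than at any lower count.

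**Figure D1:**
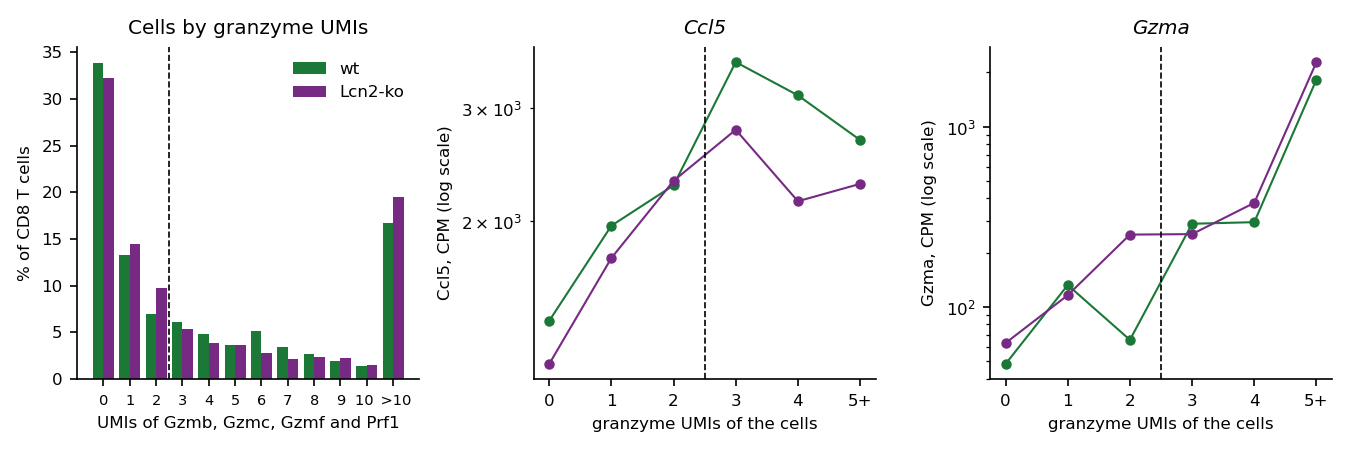
Left, share of CD8 T cells (percent) by their UMIs of Gzmb, Gzmc, Gzmf and Prf1 in the wt and Lcn2-ko libraries, with the limit of 3 UMIs as a dashed line. Middle and right, Ccl5 and Gzma (CPM, log axis) in cells grouped by that count; Ccl5 is highest at 3 UMIs (3537 CPM in wt, 2773 in Lcn2-ko), and Gzma at 5 or more (1825 and 2280 CPM).

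Granzyme-low CD8 T cells made up 6.64% (6.09 to 7.22) of kept wt cells and 9.46% (8.81 to 10.1) in Lcn2-ko, which is 2.82 percentage points more (2.0 to 3.7). Granzyme-high CD8 T cells also took a larger share there, by 1.67 points (0.894 to 2.46), and CD4 T cells differed by 0.17 points (-0.65 to 0.98). Within the CD8 T cells, 54.2% (50.9 to 57.4) were granzyme-low in wt and 56.5% (53.7 to 59.2) in Lcn2-ko, and the interval of that difference of 2.31 points (-1.88 to 6.49) covered 0. A limit set on raw UMIs depends on depth. With each cell thinned to 1000 UMIs and the rule applied again, 73.8% and 72.7% of CD8 T cells were granzyme-low.

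Against granzyme-high CD8 T cells, the granzyme-low cells held more RNA of genes of naive and memory-like T cells and of recirculation, and less of granule genes outside the rule, of integrins of tissue residence and of several killer cell receptors. UMIs were summed per library and class, and the 6 sums were compared in edgeR's quasi-likelihood fit with the library as a block; a gene is called at a Benjamini-Hochberg adjusted p under 0.05 over all genes tested. Of 10493 genes, 335 (3.19%) were called higher and 132 (1.26%) lower in granzyme-low cells. The classes were divided on granule UMIs of the same cells, so these calls describe the division and are not independent evidence about the classes. Cells with RNA of other lineages weighed on them: 63 wt (12.3%) and 95 Lcn2-ko (13.3%) granzyme-low cells had over 0.5% of their UMIs from 62 marker genes of B, myeloid, mast, tumour or stromal cells, against 34 (7.85%) and 41 (7.45%) granzyme-high cells. Without all such cells, 43 genes (0.468%) were called higher and 86 (0.935%) lower of 9194 tested. Only 21 of the higher genes were shared by both fits, 6.27% of the first set and 48.8% of the second, and 65 of the lower genes were shared, 49.2% and 75.6%. Each value below is therefore given with and without those cells where it matters. Some of the 62 genes, such as Igfbp7 and Ccr2, were also counted in T cells under the limit. The limit may thus also have left out T cells for RNA of their own, which was not tested.

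Of the 9 marker lists of other cell types, those of tumour or stroma, neutrophils and dendritic cells summed higher in granzyme-low than in granzyme-high cells of both libraries. The summed level of the 11 tumour and stroma markers was 1566 CPM in wt and 2477 CPM in Lcn2-ko granzyme-low cells, against 1046 and 860 CPM in granzyme-high cells, and 258 and 234 CPM once the cells over the limit were left out; Timp3 was at 0. Of its 8 tested members, 6 (Cald1, Col1a1, Fn1, Krt18, Krt8, Sparc) were called higher in granzyme-low cells. The neutrophil markers summed to 1501 and 913 CPM, against 675 and 454 CPM in granzyme-high cells and 181 and 194 CPM without the cells over the limit, and 5 of 8 (Csf3r, Cxcl2, G0s2, S100a8, S100a9) were called higher. Both lists are part of the 62 genes that set the limit, so the fall of these sums without those cells follows from the filter. Dendritic cell markers summed to 1918 and 1859 CPM against 1009 and 1698 CPM, with Xcr1 and Clec9a at 0 by the rule. The other lists did not sum higher in both libraries. Monocyte and macrophage markers summed to 606 and 708 CPM against 614 and 716 CPM, natural killer and NKT markers to 703 and 655 against 1057 and 1208 CPM, and B cell markers to 65.8 and 40.3 against 74.2 and 59.1 CPM with Jchain at 0. Gamma delta T cell markers summed to 211 and 167 against 365 and 264 CPM with Il23r at 0, and Trdc, the constant region of the delta chain, had a UMI in 5 granzyme-low cells of each library. Mast cell and basophil markers summed to 91.7 and 65.4 against 298 and 11.1 CPM, and CD4 T cell markers to 570 and 717 against 619 and 940 CPM with Cd4 and Foxp3 at 0 by the rule. The part of these transcripts in each class difference was not tested beyond leaving those cells out.

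Among the 12 genes with the largest higher fold by the naming rule, Ccr7 alone was also called without the cells over the limit. The other 11 were Col18a1, Sprr1a, Cnn3, Nos2, Sdc1, Emp2, Tm4sf1, Ccnd1, Ptgs2, Igfbp4 and Sod3, and 6 of them (Col18a1, Cnn3, Nos2, Tm4sf1, Ptgs2 and Sod3) turned to folds of 0 or slightly below without those cells. Col18a1, which encodes a basement membrane collagen, had a log2 fold of 1.91 ± 0.14 with all cells and -0.10 without them. The SE is that of the fit, with 2 libraries per class that differ in genotype label and are not replicates. By contrast all 12 genes with the largest lower fold, Gzmd, Gzma, Cd7, Itgae, Fcer1g, Sytl2, AA467197, Itga1, Atp6v0a2, Ifitm1, Irf8 and Ccr2, were called lower in both fits.

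Genes of naive and central memory cells and of recirculation were higher in granzyme-low cells in both fits: of 19 tested, 8 were called higher and none lower, with a median log2 fold of 0.47 with all cells and 0.63 without the cells over the limit, against a median over all genes of -0.00 in each. Ccr7, the receptor for lymph node chemokines, stood at 108 (wt) and 112 (Lcn2-ko) CPM in granzyme-low cells and at 18.4 and 37.8 CPM in granzyme-high cells, a log2 fold of 1.91 ± 0.20. Among the clusters of granzyme-low cells described below, Ccr7 did not go with S1pr1. It stood at 51.0 CPM in the cluster led by Ly6c2 and S1pr1 and at 193 CPM in the one led by Klrh1 and Lag3. Tcf7, which encodes the transcription factor TCF-1 of naive and memory-like T cells, stood at 149 and 108 CPM against 63.1 and 48.5 CPM, a log2 fold of 1.16 ± 0.13. For both genes each granzyme-low sum lay above both granzyme-high sums. S1pr1 stood at 54.7 and 43.5 CPM against 34.3 and 22.2 CPM, a log2 fold of 0.78 ± 0.18. Klf2, which encodes a transcription factor that drives S1pr1, stood at 360 and 189 CPM against 211 and 136 CPM; here the classes overlapped across libraries, and the fold within each library carried the call (log2 fold 0.59 ± 0.13). Il7r, the interleukin 7 receptor chain of long-lived T cells, stood at 160 and 182 CPM against 99.3 and 142 CPM. Actn1 was called in both fits, Igfbp4 only with all cells and Bach2 only without the cells over the limit.

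The share of cells with a UMI showed the same order at the measured depths. A Tcf7 UMI was found in 30.5% and 23.9% of granzyme-low cells, 15.2% and 12.2% of granzyme-high cells, and 0.98% and 2.4% of the neutrophil-like cells. With each cell thinned to 1000 UMIs and the rule applied again, the shares were 9.87% and 8.96% against 5.56% and 3.20%. A Ccr7 UMI was found in 13.3% and 15.3% of granzyme-low cells, 3.46% and 6.55% of granzyme-high cells 27.7% and 34.6% of CD4 T cells and 3.44% and 2.88% of the neutrophil-like cells. The granzyme-low shares lay between those of the other T cells, and the wt granzyme-high share was at background.

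Genes of the progenitor exhausted state, in which CD8 T cells keep self-renewal under chronic antigen, gave 3 of 12 members called higher and none lower with all cells (Il7r, Slamf6, Tcf7), and 4 with Kit added without the cells over the limit. Il7r and Tcf7 are the same calls as in the naive and central memory list, so Slamf6 was the only further gene called with all cells. Slamf6, a surface receptor of that state, stood at 16.6 and 16.9 CPM in granzyme-low cells and at 5.52 and 3.56 CPM in granzyme-high cells, a log2 fold of 1.87 ± 0.34. Inhibitory receptors did not move together. Havcr2 was lower, at 41.4 and 58.3 CPM against 88.3 and 147 CPM (log2 fold -1.27 ± 0.17), and so was Tnfrsf9, which encodes the costimulatory receptor 4-1BB, at 345 and 459 CPM against 462 and 709 CPM. Pdcd1, which encodes PD-1, was not called, at 260 and 392 CPM against 272 and 455 CPM (log2 fold -0.20 ± 0.14). Lag3 was not called either, at 50.8 and 62.6 CPM against 55.2 and 84.5 CPM. Tox, a transcription factor of exhausted T cells, was called higher only without the cells over the limit, at 202 and 229 CPM against 138 and 136 CPM. Of 22 exhaustion and checkpoint genes, none was called higher and 5 lower with all cells (Cd244a, Ctla4, Entpd1, Havcr2, Tnfrsf9), and 2 higher and 3 lower of 21 without the cells over the limit.

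Granule genes outside the rule were lower: 6 of 14 tested (Gzma, Gzmd, Gzme, Serpinb6b, Serpinb9, Serpinb9b) were called lower in both fits and none higher. The granzyme genes lie in families of similar sequence and are counted from 3′ ends, so reads could be split between close relatives. Gzma, a tryptase of cytotoxic granules, stood at 73.5 and 106 CPM in granzyme-low cells and at 1497 and 1890 CPM in granzyme-high cells, a log2 fold of -4.26 ± 0.20. Of the tissue residence genes, 4 of 14 were called lower (Itga1, Itgae, Rgs1, Rgs2) and none higher in both fits. Itgae, which encodes the CD103 integrin chain that binds E-cadherin, stood at 95.6 and 62.6 CPM against 246 and 166 CPM (log2 fold -1.43 ± 0.12). Cd7, a surface protein of T and natural killer cells, stood at 265 and 145 CPM against 631 and 439 CPM (log2 fold -1.46 ± 0.10). Killer cell lectin-like receptors gave 9 of 17 called lower with all cells, while without the cells over the limit 4 of 16 were lower (Klra5, Klra7, Klrb1a, Klrb1c) and Klrh1 was higher, at 73.8 and 108 CPM against 28.7 and 63.7 CPM.

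**Figure D2:**
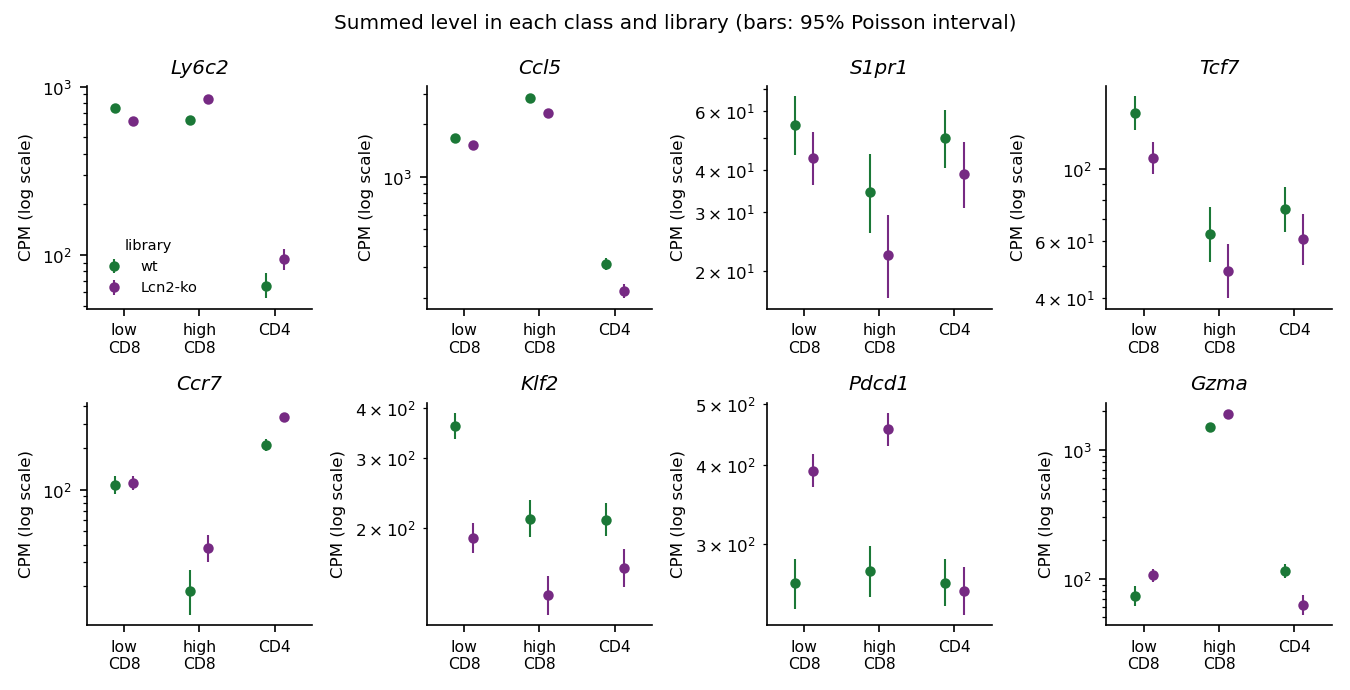
Levels (CPM, log axis, 95% Poisson intervals) of Ly6c2, Ccl5, S1pr1, Tcf7, Ccr7, Klf2, Pdcd1 and Gzma in granzyme-low CD8, granzyme-high CD8 and CD4 T cells of both libraries. Tcf7 and Ccr7 are higher and Gzma lower in granzyme-low than in granzyme-high cells of each library, while Ly6c2 and Pdcd1 overlap between those classes.

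Ccl5, although a marker of the granzyme-low cells, was lower in them than in granzyme-high cells, which stood at 2818 and 2328 CPM (log2 fold -0.74 ± 0.08). Ly6c2 was not called: granzyme-high cells stood at 633 and 841 CPM, and the ranges of the classes overlapped. Effector memory genes as a list gave 2 of 21 called higher (Ccl3, Itgb1) and 6 lower (Ccl5, Id2, Klrd1, Klrg1, Nkg7, Tbx21) with all cells, but 1 higher (Itgb1) and 1 lower (Ccl5) without the cells over the limit. Itgb1, the common beta 1 integrin chain, stood at 577 and 431 CPM against 368 and 324 CPM. Of the 24 glycolysis and hypoxia genes, 6 were called lower without the cells over the limit (Aldoa, Bnip3, Eno1, Ldha, Pgk1, Tpi1), and 2 lower and 2 higher with all cells. The cell cycle list (29 genes) and the type I interferon list (27 tested, 26 without the cells over the limit) had no member called in either fit. With all cells, members called in other lists were Thy1 (lower) among 18 T cell receptor signalling genes, Il7r (higher) and Il12rb2, Il2ra and Il2rb (lower) among 22 cytokine receptors, and Egr1, Egr2, Fos and Jun (higher) among 20 immediate-early genes. Hspb1 (higher) was called among 15 heat shock genes, Iigp1 (higher) and Irf8 (lower) among 25 interferon gamma genes, Slamf7 and Tnfrsf9 (lower) among 17 costimulatory genes, and Tcf7 (higher) and Id2 and Tbx21 (lower) among 22 T lineage transcription factors. The 7 Ly6 family genes had 1 higher (Ly6c1) and 2 lower (Plac8, Thy1). Without the cells over the limit, Thy1, Il2ra, Egr1, Egr2, Fos, Jun, Hspb1, Iigp1, Id2, Tbx21 and Ly6c1 were no longer called in these lists. Il18r1, Dusp2, Cd27, Tnfrsf4 and Bach2 were then called higher and Ly6a lower.

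**Figure D3:**
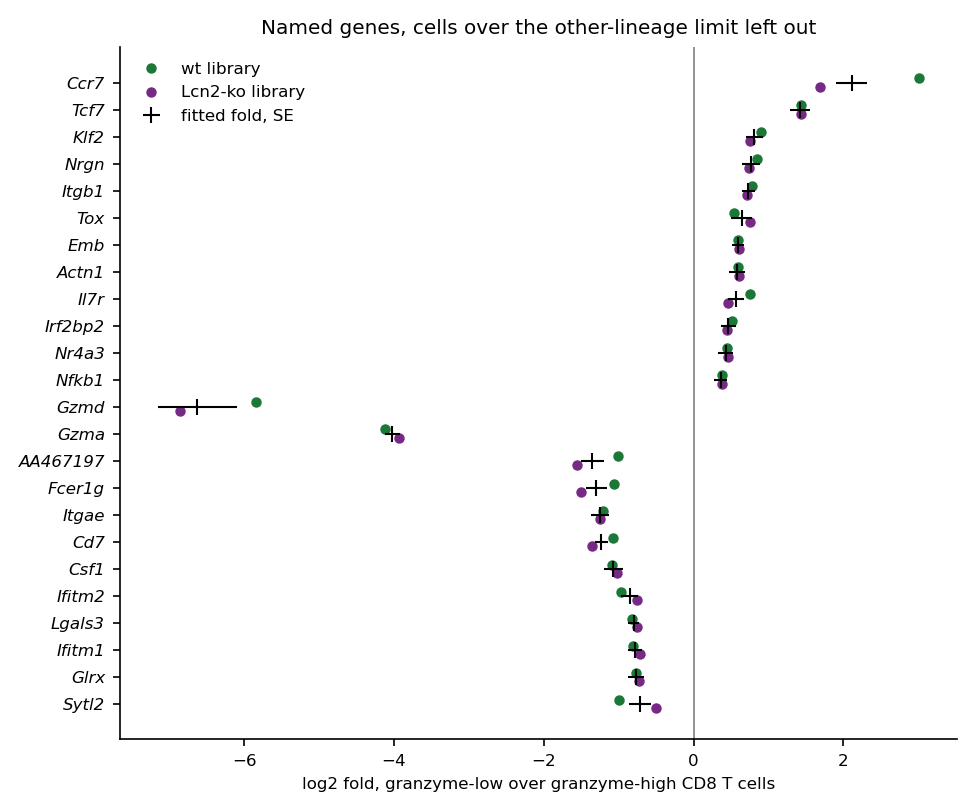
Log2 fold of granzyme-low over granzyme-high CD8 T cells for the 12 highest and 12 lowest genes by the naming rule, with cells over the other-lineage limit left out. Points are the folds within each library and crosses the fitted fold with its SE; Ccr7 (2.11) and Tcf7 (1.42) lead the higher genes, Gzmd (-6.62) and Gzma (-4.02) the lower ones.

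Compared with Foxp3-negative CD4 T cells, 582 of 10493 genes (5.55%) were called higher and 671 (6.39%) lower in granzyme-low CD8 T cells. Cd8 and Cd4 UMIs chose the classes, so these calls too describe the choice. Regulatory T cells that gave no Foxp3 UMI would fall in the CD4 class and were not told apart in it. Cells over the other-lineage limit were 25.8% and 29.3% of the CD4 cells; without them 642 (6.98%) and 866 (9.42%) of 9194 genes were called, and 481 and 577 of the calls were shared. Ly6c2 separated the lineages, at 746 and 622 CPM in CD8 cells against 65.8 and 94.1 CPM in CD4 cells (log2 fold 3.15 ± 0.17). Ccl5 stood at 316 and 219 CPM in CD4 cells (log2 fold 2.63 ± 0.09). Xcl1, the chemokine that attracts cross-presenting dendritic cells, stood at 510 and 409 CPM against 96.3 and 63.7 CPM (log2 fold 2.59 ± 0.12). Thus the granzyme-low cells carried transcripts of the CD8 and natural killer programme other than the 4 granule genes: Klrk1, the activating receptor NKG2D, stood at 175 and 181 CPM against 38.7 and 48.3 CPM, and Nkg7, a granule membrane protein, at 774 and 821 CPM against 241 and 278 CPM. Trgc2, Cd7, Ctsw, Evl, Jaml, Klrc1 and Klrd1 completed the 12 highest genes, with log2 folds from 1.5 to 2.51. S1pr1, by contrast, did not separate the lineages, at 49.9 and 38.8 CPM in CD4 cells (log2 fold 0.20 ± 0.17, not called).

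Among the genes lower than in CD4 cells, Penk, which encodes proenkephalin, stood at 43.7 and 25.5 CPM against 1025 and 1185 CPM (log2 fold -5.01 ± 0.19). Csf2, which encodes the myeloid growth factor GM-CSF, stood at 18.2 and 14.4 CPM against 168 and 165 CPM. Il2ra, the high-affinity chain of the interleukin 2 receptor, stood at 51.4 and 71.9 CPM against 328 and 383 CPM. Scin, Il1rl1, Ccl1, Areg, Tnfsf8, Igfbp7, Maf, Ramp3 and Tiam1 made up the rest of the 12 lowest, from -4.62 to -2.52 on the log2 scale. Igfbp7 is also among the 62 marker genes of the other-lineage limit. Without the cells over that limit it still stood at 42.0 and 43.0 CPM against 327 and 429 CPM in CD4 cells. Ccr7 and Il7r, higher than in granzyme-high cells, were lower than in CD4 cells (log2 folds -1.25 ± 0.15 and -1.17 ± 0.10). As lists, killer cell lectin-like receptors gave 11 of 17 called higher and 2 lower, effector memory genes 12 of 21 higher and 3 lower, and glycolysis and hypoxia genes 10 of 24 lower and none higher.

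The granzyme-low cells were not uniform. Leiden clustering of the 1226 cells, run without the genes that differed most between libraries, gave 9 clusters, of which 4 held 1066 cells with little RNA of other lineages. A cluster led by Ly6c2 and S1pr1 held 468 cells; 5 markers of naive or central memory cells and 5 of effector memory cells were at least 2-fold higher in it than in the other cells, so it was given no cell type name. Gzma had the largest fold in it, at 270 CPM against 33.8 CPM in the other granzyme-low cells. Its leading genes also included Gzmk, Ccr2, Cdh1, S1pr4 and Ccl5, with Ly6c2 at 1809 CPM and S1pr1 at 129 CPM. A cluster led by Klrh1 and Lag3 held 378 cells and had 7 of the 8 exhaustion markers at least 2-fold higher, so it is called exhausted T-like. No other marker list had more than 2 members past that fold there. The name rests on the exhaustion list alone. Its leading genes also included Nrn1, Nrgn, Irf8 and Ifng, the last at 258 CPM against 70.0 CPM in the other cells. In this cluster, Pdcd1 stood at 662 CPM, Tnfrsf9 at 876 CPM and Ly6c2 at 123 CPM. Tcf7 stood at 73.8 CPM in it, against 231 CPM in the Ly6c2 and S1pr1 cluster. Ccr7 ran the other way, at 193 CPM against 51.0 CPM, and was highest, at 911 CPM, in a cluster of 19 cells led by Ccl22. A cycling-like cluster (141 cells, all 7 cycling markers) had Mki67 at 646 CPM. The fourth, led by Klra6, Klra7, Klrb1a and Cd7 (79 cells, no name), had Cd8a at 685 CPM but Cd8b1 at 55.2 CPM, against 774 CPM of Cd8b1 in the Ly6c2 and S1pr1 cluster, together with Ikzf2 at 714 CPM and Cd160 at 214 CPM. These genes describe the clusters and are not tested, since the clustering used them. The share of all genes that lay at least 2-fold higher in each cluster is not given here. Another 133 cells formed clusters led by tumour or stroma, myeloid and dendritic genes, and 130 of these were over the other-lineage limit.

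Of the 5 given markers, Ly6c2, S1pr1 and Ccl5 were among the leading genes of the Ly6c2 and S1pr1 cluster. Cd8a was not confined to that cluster, at 1058 CPM in it and 1349 CPM in the exhausted T-like cluster. Ly6c2 UMIs were found in 77.5% (wt) and 76.0% (Lcn2-ko) of granzyme-low cells with an S1pr1 UMI and in 36.1% and 37.2% of those without. Pdcd1 UMIs ran the other way, in 14.1% and 22.7% of cells with an S1pr1 UMI (10 of 71 and 17 of 75 cells) and 41.5% and 55.9% of cells without. Of cells with a Klrh1 UMI, 67.4% and 86.2% had a Pdcd1 UMI, against 35.0% and 47.7% of those without. Deeper cells have more UMIs of every gene, so such shares depend on depth; after thinning to 1000 UMIs, Pdcd1 was found in 15.2% and 5.71% of cells with S1pr1 and in 23.1% and 37.4% of cells without.

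**Figure D4:**
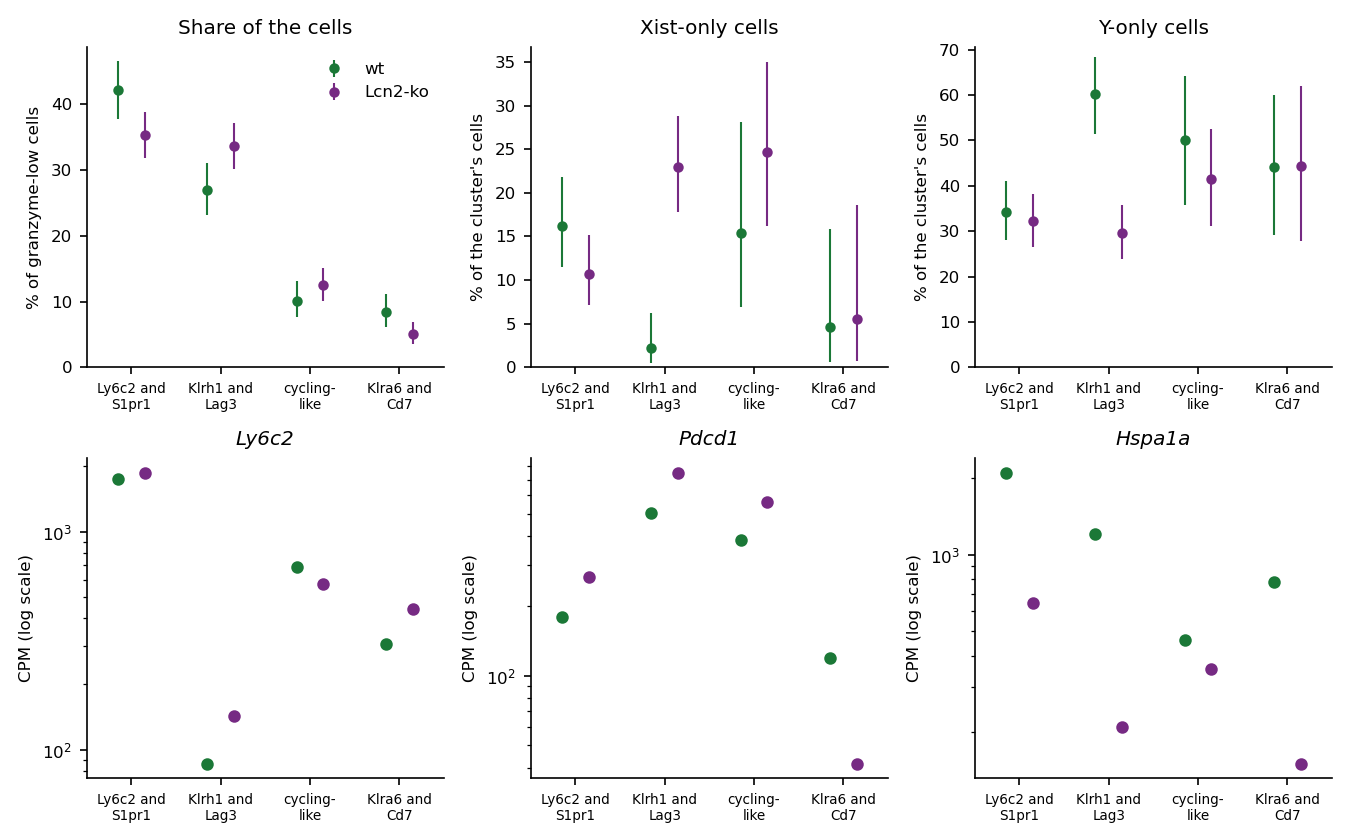
The 4 main clusters of granzyme-low cells in each library: share of cells, share of cells with Xist and no Y-linked UMI and with Y-linked and no Xist UMI (percent, 95% Clopper-Pearson intervals), and Ly6c2, Pdcd1 and Hspa1a (CPM, log axis). Xist-only cells in the Klrh1 and Lag3 cluster are 2.17% in wt and 22.9% in Lcn2-ko, and Hspa1a is lower in Lcn2-ko in each cluster.

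Cluster shares differed between the libraries by at most 6.89 percentage points. The Ly6c2 and S1pr1 cluster took 42.2% of granzyme-low cells in wt and 35.3% in Lcn2-ko (difference -6.89, -12.4 to -1.37). At a clustering resolution of 1 it split into a part of 291 cells led by Gzma and Gzmk, with a difference of 1.52 points (-3.35 to 6.26), and a part of 182 cells led by S1pr1, with -8.72 points (-13.0 to -4.62). The exhausted T-like cluster took 26.95% and 33.6% (6.66 points, 1.43 to 11.8). At resolution 1 it split as well, and its larger part of 305 cells differed by 4.15 points, with an interval that covered 0 (-0.77 to 8.93). Another 68 of its cells fell in a cluster of 79 cells led by Ccl1, Penk and Ccr7. That cluster had Ccr7 at 783 CPM and 4 exhaustion markers at least 2-fold higher. With the genes that differ between libraries kept, the cluster nearest to the Ly6c2 and S1pr1 cluster differed by -0.68 points (-6.05 to 4.62). The one nearest to the exhausted T-like cluster differed by 5.51 points (0.276 to 10.6). The cycling-like cluster took 10.2% and 12.5% and the Klra6 and Cd7 cluster 8.40% and 5.04%.

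Marrow in these chimeras was male and hosts female, so Xist UMIs mark host-derived cells and UMIs of the Y-linked Ddx3y, Eif2s3y, Uty and Kdm5d mark marrow-derived cells, as far as a cell gives either. In wt, 45.7% of granzyme-low cells had Y-linked and no Xist UMIs and 10.2% the reverse; in the library labelled Lcn2-ko the shares were 35.0% and 15.5%. The Y-only share thus differed by -10.7 points (-16.2 to -5.13) and the Xist-only share by 5.39 points (1.56 to 9.06). Neither kind of UMI was found in 43.0% and 47.3% of the cells. The Xist-only cells were spread differently over the clusters. In the exhausted T-like cluster they were 3 of 138 wt cells (2.17%, 0.451 to 6.22) and 55 of 240 Lcn2-ko cells (22.9%, 17.8 to 28.8), at median depths of 3142.5 and 3131.5 UMIs. In the Ly6c2 and S1pr1 cluster they were 35 of 216 wt cells (16.2%) and 27 of 252 Lcn2-ko cells (10.7%). Within the exhausted T-like cluster of the library labelled Lcn2-ko, the 55 Xist-only and 71 Y-only cells had Pdcd1 at 764 and 725 CPM and Tnfrsf9 at 1066 and 881 CPM. MB49 is a male line, and Y-linked RNA released by tumour cells was not told apart from that of marrow-derived cells.

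Between the libraries, 3581 genes passed the minimum of 50 UMIs and of 50 CPM in 1 library or both in the granzyme-low cells. The level in Lcn2-ko was 2-fold or more above wt for 20 of them (0.559%) and 2-fold or more below it for 14 (0.391%), with a median log2 ratio (Lcn2-ko over wt) of 0.01 over all 3581. Without the cells over the other-lineage limit 1 gene of 3426, Pdcd7, passed that fold upward and 8 passed it downward. Of the 12 genes with the highest ratio (Mmp13, Ly6c1, Cxcl9, Col6a2, Igfbp4, Lipg, Eml1, Inf2, C1ra, C3, Enpp2 and Ano1), Mmp13 had 66 of its 145 UMIs in 1 cell, and its log2 ratio of 2.24 (1.56 to 2.99) was -0.09 without the cells over the limit. Ly6c1, a close relative of Ly6c2, stood at 40.3 and 112 CPM, and at 8.69 and 11.5 CPM without those cells. Of the 12 with the lowest ratio, Fgb had 109 of its 112 UMIs in 1 cell, and S100a8, S100a9, Acod1, Hdc, Hcar2 and Ccr1 are genes of neutrophils and other myeloid cells. The remaining 5 were Hspa1a, Hspa1b, Hspb1, Bag3 and Id3. Without the cells over the limit, Hspb1, a small heat shock protein, went from 222 and 92.1 CPM to 55.7 and 39.0 CPM and its log2 ratio from -1.27 to -0.52, below the 2-fold mark, and the other 4 stayed past it.

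Hspa1a (chr17:34969190-34972156, minus strand) and Hspa1b (chr17:34956436-34959238, minus strand) encode nearly identical inducible HSP70 chaperones, so reads of the pair cannot be assigned with certainty to either gene. Hspa1a stood at 1263 CPM in wt (1212 to 1316) and 305 CPM in Lcn2-ko (285 to 327), a log2 ratio of -2.05 (-2.16 to -1.93), and Hspa1b at 1285 and 348 CPM, a log2 ratio of -1.89 (-2.00 to -1.78). Without the cells over the limit the ratios were -1.89 and -1.72. Stretches before their transcription starts are shown because, after Fgb, the pair had the lowest ratios without the cells over the limit; they are the 130 bases upstream in RefSeq (GRCm38.p6), 5′ to 3′ on the gene's strand, with the letters GAANNTTC of a heat shock element in capitals.
Hspa1a (chr17:34972157-34972286, minus strand): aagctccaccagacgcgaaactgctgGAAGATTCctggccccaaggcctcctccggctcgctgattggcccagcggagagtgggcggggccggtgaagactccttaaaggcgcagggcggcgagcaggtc
Hspa1b (chr17:34959239-34959368, minus strand): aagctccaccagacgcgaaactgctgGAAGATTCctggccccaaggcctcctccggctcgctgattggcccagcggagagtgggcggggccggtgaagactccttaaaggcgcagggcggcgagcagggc
The match began 104 bases before the start in both, and the stretches were identical at 129 of 130 bases. GAANNTTC, searched on both strands, was found in 3.42% of 32851 promoters over the same 130 bases. Over 250 bases it was found in 6.69% of promoters and in 6 of the 12 heat shock list genes with a promoter in the table (Dnaja1, Hspa1a, Hspa1b, Hspb1, Hspd1, Hspe1); a match describes letters and is no evidence of binding.

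Other heat shock genes followed to a smaller extent. Of 15 measured, 6 lay 1.5-fold or more below wt in Lcn2-ko and none 1.5-fold or more above, where 3.26% and 4.21% of 6533 genes with at least 20 CPM passed that fold downward and upward. Bag3, a cochaperone of HSP70, stood at 198 and 87.0 CPM (log2 ratio -1.19, -1.43 to -0.95). Hsph1, an HSP110 chaperone, stood at 313 and 166 CPM, and Dnajb1, an HSP40 cochaperone, at 389 and 224 CPM. Hsp90aa1, Hsp90ab1, Hspa8 and Hspa5 had ratios from -0.41 to -0.13, and Chordc1 and Cacybp of -0.01 and 0.14, so not the whole list was lower. The other classes differed alike: the Hspa1a ratio was -1.87 in granzyme-high CD8 cells and -1.64 in CD4 T cells, so the difference was not particular to the granzyme-low cells.

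Hspa1a RNA was unevenly spread over the cells. A UMI was found in 42.2% of wt and 18.2% of Lcn2-ko granzyme-low cells (28.9% and 11.1% after thinning to 1000 UMIs), and 10 or more UMIs in 13.9% and 4.34%. The 51 wt cells with the most Hspa1a UMIs held 72.4% of them, and the 71 such cells of the library labelled Lcn2-ko held 92.8%. Neutrophil-like cells, which can express heat shock genes themselves, had a UMI in 26.0% and 19.7%. Within the clusters Hspa1a stood at 2110 and 645 CPM in the Ly6c2 and S1pr1 cluster, 1210 and 210 CPM in the exhausted T-like cluster, and 780 and 150 CPM in the Klra6 and Cd7 cluster, lower in Lcn2-ko in each.

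**Figure D5:**
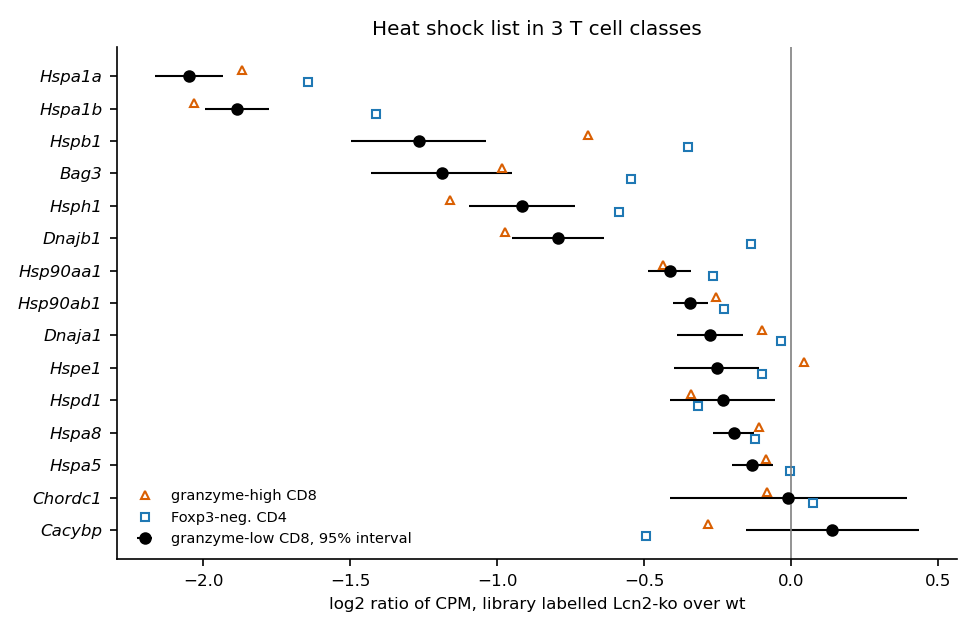
Log2 ratio of the library labelled Lcn2-ko over wt for the 15 heat shock genes in granzyme-low CD8 cells (black, 95% interval for counting error), granzyme-high CD8 cells (triangles) and CD4 T cells (squares). Hspa1a and Hspa1b are lowest in all 3 classes, at -2.05 and -1.89 in granzyme-low cells, while Chordc1 and Cacybp lie near 0.

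Beyond heat shock, PD-1 and a few regulators differed. Pdcd1 (chr1:94038305-94052553, minus strand) stood at 260 CPM in wt (237 to 284) and 392 CPM in Lcn2-ko (369 to 416), a log2 ratio of 0.59 (0.44 to 0.75), and 0.75 without the cells over the limit. A Pdcd1 UMI was found in 37.7% and 52.4% of granzyme-low cells (22.6% and 36.0% after thinning) and in 0.25% and 0% of the neutrophil-like cells. The ratio was 0.75 in granzyme-high CD8 cells and -0.04 in CD4 T cells; the difference between these classes was not tested. Inside the clusters, Pdcd1 stood at 179 and 265 CPM in the Ly6c2 and S1pr1 cluster, 504 and 752 CPM in the exhausted T-like cluster and 386 and 559 CPM in the cycling-like cluster. Its level was higher in Lcn2-ko within each of these 3 clusters and lower in the Klra6 and Cd7 cluster, at 119 and 41.6 CPM from 18 and 5 UMIs.

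Plac8 (chr5:100553725-100572245, minus strand), which encodes a small cysteine-rich protein of leukocytes, stood at 206 and 378 CPM, a log2 ratio of 0.87 (0.70 to 1.05) that was 0.85 in granzyme-high cells and 0.27 in CD4 T cells. A Plac8 UMI was found in 28.3% and 39.1% of granzyme-low cells, against 14.99% and 15.9% of the neutrophil-like cells. In the exhausted T-like cluster it stood at 117 and 360 CPM. Klf2 went the other way, at 360 and 189 CPM (log2 ratio -0.93, -1.10 to -0.76), with -0.69 without the cells over the limit, -0.64 in granzyme-high and -0.40 in CD4 T cells. A Klf2 UMI was found in 43.0% and 32.1% of granzyme-low cells, and in 56.5% and 41.3% of the shallower neutrophil-like cells, which differed in the same direction. Id3, which encodes an inhibitor of DNA binding found in memory and progenitor T cells, stood at 66.3 and 31.6 CPM (-1.07, -1.48 to -0.66), and was also lower in granzyme-high (-1.57) and CD4 T cells (-1.32). Icos, a costimulatory receptor, stood at 402 and 547 CPM, Tnfrsf9 at 345 and 459 CPM, and Il2rb, a chain of the interleukin 2 and 15 receptors, at 1557 and 1930 CPM. Plac8, Klf2, Icos, Tnfrsf9, Il2rb and Pdcd1 lie outside the rule that names genes between the libraries with all cells, or below its 2-fold mark, and were picked after their values were seen.

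The gene lists differed between the libraries to unlike extents at the 1.5-fold mark. Of 6533 genes with at least 20 CPM, 4.21% passed that fold upward and 3.26% downward, and whether a list differed from these shares was not tested. Naive and recirculation genes had 1 of 19 measured members higher and 3 lower, with a median log2 ratio of -0.19; exhaustion and checkpoint genes had 1 higher and 2 lower of 19, with a median of -0.06. Type I interferon genes had 1 of 25 higher and 3 lower, with Isg15, a ubiquitin-like protein, at 63.6 and 32.7 CPM and Ifit1, which binds foreign RNA, at 18.8 and 30.9 CPM. T cell receptor signalling genes had none of 18 past that fold. Ly6 family genes had 3 of 6 higher with a median of 0.42, which was 0.15 without the cells over the limit. T lineage transcription factors had 4 of 21 lower and costimulatory genes 3 of 15 lower, with none higher in either list. Tissue residence genes had a median log2 ratio of -0.28, immediate-early genes of -0.23 and cell cycle genes of 0.25. Without the cells over the limit these medians were -0.20, -0.37 and 0.12.

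Some of the interferon RNA was held by a small cluster. It consisted of 16 granzyme-low cells, 5 in wt and 11 in Lcn2-ko, and was led by Ifit3b, Slfn5, Ifi214, Ifit1bl1, Ifit3 and Ifit1. It had 7 of the 8 interferon markers at least 2-fold higher, so it is called interferon-stimulated-like. No other marker list had more than 1 member past that fold in it. Ifit3 stood there at 1397 CPM against 31.0 CPM in the other granzyme-low cells, with a UMI in 14 of 16 cells, and Ifit1 at 776 against 19.8 CPM, with a UMI in 11. Most UMIs of these genes lay outside it: it held 17 of 83 Ifit3 UMIs in wt and 37 of 112 in Lcn2-ko. The cluster led by myeloid genes also had 6 of the interferon markers at least 2-fold higher. None of these 16 cells was over the other-lineage limit and none was among those with high doublet scores. The stretches before both genes are shown because these genes are among those that lead the cluster; they are again the 130 bases upstream in RefSeq (GRCm38.p6), with an interferon-stimulated response element in capitals (searched as GAAA, 2 bases of any kind and GAAA again on either strand; here it reads TTTC, 2 bases and TTTC).
Ifit1 (chr19:34640759-34640888, plus strand): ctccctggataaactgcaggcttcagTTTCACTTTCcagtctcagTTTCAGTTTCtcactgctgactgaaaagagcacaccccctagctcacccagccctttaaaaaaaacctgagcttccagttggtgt
Ifit3 (chr19:34583399-34583528, plus strand): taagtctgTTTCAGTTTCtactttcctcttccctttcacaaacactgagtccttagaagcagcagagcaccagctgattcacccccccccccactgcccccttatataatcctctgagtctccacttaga
The matches began 104 and 85 bases before the start of Ifit1 and 122 bases before that of Ifit3. These letters were found in 1.35% of 32851 promoters over 130 bases; over 250 bases it was found in 2.98% of promoters and in 13 of the 21 type I interferon list genes with a promoter in the table.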

How the data were processed

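Gene by cell matrices of UMI counts from 2 libraries (31253 genes) were used as deposited. The submitters' processing notes name Cell Ranger and mm10 without a version or role. The smallest deposited cell held 501 UMIs. Counts were summed per library and class and scaled to CPM. Classes were compared with edgeR 4.0.16 (R 4.3.3; quasi-likelihood, TMM, library as block), with DESeq2 1.42.0 as an alternative; adjusted p-values are Benjamini-Hochberg over all genes tested. The edgeR step was tested on simulated data. Cells were clustered with scikit-learn 1.9.0 and leidenalg 0.10.2 (Python 3.11.15; 1500 variable genes, 20 components, 15 neighbours, resolution 0.6), with clusters named from marker lists. Doublets were kept; leaving out the 4% with the highest Scrublet scores (scanpy 1.11.5, expected rate 0.06) in each library was an alternative, and 23 wt and 20 Lcn2-ko granzyme-low cells were among them. The genes named are, per side, the 12 with the largest fold: between libraries with minimums of 50 UMIs and of 50 CPM in 1 library or both, between classes among called genes with at least 100 CPM in the higher class of both libraries; list members and markers are named besides. The members, the 20 gene lists and the 9 marker lists were chosen with earlier results of these data known; 427 of 428 list genes were found in the files. Since classes were divided on the same counts, p-values are no independent evidence that the classes differ. With the library as block, they measure class differences against their variation between the 2 libraries, pooled over all classes fitted and moderated across genes. The 2 libraries carry different genotype labels and are not replicates, so a class difference that depends on the label adds to that variation. The limit on other-lineage RNA and the other clustering settings were chosen after seeing the data. Some results of these lists are not reported here.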

Additional observations from a re-analysis of the deposited data

Results flagged for a closer look

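The share of granzyme-low cells with Xist and no Y-linked UMIs differed between the libraries in opposite directions in 2 clusters. In the Klrh1 and Lag3 cluster it was 20.7 percentage points higher in the library labelled Lcn2-ko (14.4 to 26.6), from 3 of 138 to 55 of 240 cells. In the Ly6c2 and S1pr1 cluster it was -5.49 points (-11.9 to 0.69), from 35 of 216 to 27 of 252 cells. Each group is 1 library, the difference between the clusters was not tested, and the interval in the Ly6c2 and S1pr1 cluster covers 0. The Y-only share of the Klrh1 and Lag3 cluster was 60.1% in wt and 29.6% in Lcn2-ko.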

How the results depend on the processing

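No paired analysis was possible because each genotype label had 1 library; this concerns the comparison between libraries, while the class comparisons had the library as a block. Each result was recomputed with other limits on granule, CD8 and mitochondrial UMIs, without cells of high doublet score, at 1000 UMIs per cell, without cells with gamma or delta chain UMIs, with Y-only cells, and with other filters, scalings and fits. In each case below the cause was not tested. The difference in the share of kept cells was 1.26 points at a granule limit of under 1 UMI and 3.82 without the cells over the other-lineage limit, and the Y-only difference was -5.11 at the former. The share within CD8 T cells changed sign at limits of under 1 (-1.58) and under 2 (-0.44) and after thinning (-1.08), all with intervals covering 0.

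Genes at least 2-fold higher between libraries numbered 31 at a granule limit of under 1, 13 with at least 2 CD8 UMIs, 1 without the cells over the other-lineage limit, 67 in Y-only cells, 8 and 56 at minimums of 100 and 20 CPM, and 3 by the mean of per-cell CPM. The lower genes numbered 34 at under 1, 27 with Cd8b1 required, 25 without gamma or delta chain UMIs, 8 without the cells over the limit, 28 in Y-only cells, 6 and 41 at 100 and 20 CPM, and 9 by per-cell means. Log2 ratios that changed sign were, without the cells over the limit, Mmp13 (-0.094), Igfbp4 (-0.52), Lipg (-0.12), C3 (-0.29), S100a8 (0.10) and Hdc (0.25), and after thinning Cxcl9 (-0.32), C3 (-0.16), Enpp2 (-1.01) and Fgb (2.38). Cxcl9 was -0.38 with at least 2 CD8 UMIs and Fgb 0.28 in Y-only cells.

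Genes higher than in granzyme-high cells numbered 105 with DESeq2, 636 with no filter, 147 without the library block, 564 with only those classes fitted, 75 with Cd8b1 required, 26 with at least 2 CD8 UMIs, 9 after thinning and 43 without the cells over the limit; the lower genes numbered 43, 214, 42, 283, 59, 40, 18 and 86. Without the cells over the limit the log2 folds of Col18a1 (-0.10), Cnn3 (-0.11), Nos2 (-0.29), Tm4sf1 (-0.13), Ptgs2 (-0.065) and Sod3 (-0.0037) changed sign, as did Sod3 (-0.10) with at least 2 CD8 UMIs. Genes higher than in CD4 cells numbered 245 with DESeq2, 361 without the block and 992 with at least 2 CD8 UMIs, and lower genes 258 with DESeq2 and 1381 with 2 CD8 UMIs; of 383 checks of the genes named against CD4 cells, 0 lost the call or changed sign. Clusters were matched to the cluster that shares most of their cells, and they split. For the Ly6c2 and S1pr1 cluster this gave 1.52 points at resolution 1, where a second part led by S1pr1 gave -8.72, and -0.68 with differing genes kept. For the cycling-like cluster it gave 6.23 and 6.20 points, where second parts with all 7 cycling markers gave -2.58 and -2.47. For genes of few UMIs, small differences between libraries were not detectable at this depth.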

Other observations

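The Klra6 and Cd7 cluster of 79 cells also had Xcl1 at 1401 CPM in wt and 1273 CPM in Lcn2-ko, and Cd7 at 2048 and 1581 CPM. The mast cell genes Cpa3 and Tpsb2 among its leading genes came from few cells, with all 57 Cpa3 UMIs in 1 cell and the 68 Tpsb2 UMIs in 3.

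A cluster of 11 granzyme-low cells, 5 in wt and 6 in Lcn2-ko, had a UMI of Klrg1 in 5 cells and Tnfrsf9 at 1802 CPM, Ikzf2 at 993 CPM and Itgae at 588 CPM, with Cd8a at 110 CPM and Cd8b1 at 368 CPM. Its leading genes included Lrrc32, Itgb8, Izumo1r, Ccr8 and Il1rl1, which regulatory T cells are known to express, while Cd4 and Foxp3 were at 0 by the rule. It rests on 11 cells and was given no name.

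With the genes that differ between libraries kept in the clustering, a cluster of 44 cells led by Hspa1a, Hspa1b and Klf2 appeared, with 34 wt cells (6.64% of granzyme-low cells) and 10 Lcn2-ko cells (1.40%).

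Cells with a UMI of Trdc or a gamma chain constant gene made up 33.6% of wt and 29.0% of Lcn2-ko granzyme-low cells, while Trdc itself was found in 5 cells of each.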
